A study of Ambystoma mexicanum with 6 samples.

Results

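The genes described here encode the machinery that builds autophagosomes and the receptors that load them. They were chosen by symbol from a list of 38 autophagy genes. Of the 38 symbols, 36 were found among the 99126 gene models counted; ATG7 and GABARAPL1 matched no row and were not analysed here. A symbol carried by several gene models was represented by the model with the highest mean count, and a .L or .S ending was ignored. The 6 samples were cells of AL1, a wild-type (WT) fibroblast line of the axolotl Ambystoma mexicanum, from which polyadenylated RNA was sequenced. In the 3 treated samples, senescence had been induced by 24 h in 10 μM etoposide together with 1 μM nutlin-3a; 11 days in 1 μM nutlin-3a alone came next. The 3 DMSO samples received the solvent only and were passaged over the same 12 days to keep them dividing, and cells of both groups were collected at day 14. Etoposide is a topoisomerase poison that breaks DNA, and nutlin-3a keeps MDM2 from binding p53. All samples come from 1 cell line, and drug exposure, arrest and the lack of passaging cannot be told apart in this design. The labels do not state whether the 3 samples of a group were separate cultures, so the spread behind each p-value is that of these 6 libraries and could be technical.

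Autophagy encloses cytoplasm in a double membrane, the autophagosome, and delivers it to the lysosome for breakdown. The ULK1 kinase complex starts the process, a class III phosphatidylinositol 3-kinase complex marks the membrane with the lipid PI3P, and ATG9 and ATG2 proteins bring in membrane. A pair of ubiquitin-like conjugation reactions then attaches LC3 and GABARAP proteins to the lipid phosphatidylethanolamine, and cargo receptors bind both the tagged membrane and ubiquitin-marked cargo. In mammalian cells entering senescence, lysosomes are known to expand, and autophagy has been described in such cells as both more and less active. Messenger RNA levels do not measure the flow of cargo through the pathway.

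Library totals ran from 33083856 to 46686876 counts in treated samples and from 28604727 to 33633869 in DMSO samples. The 100 most counted gene models took 42.3% to 46.3% of the counts of treated libraries and 36.7% to 37.8% of those of DMSO libraries, and models of the mitochondrial genome took 7.86% to 9.15% of treated and 7.90% to 12.1% of DMSO libraries. Values below are CPM, read counts relative to library size, adjusted by TMM scaling, which allows for such differences in composition. With library size as the only scaling, the log2 fold change of the median model moved by -0.37. Of the fibroblast markers, 12 of 13 were found, and their summed level was 7698 to 9419 CPM in treated and 7245 to 7498 CPM in DMSO libraries. VIM made up most of it; 3 of the 9 tested, the collagen genes COL1A1 and COL1A2 and FN1, fell, and DCN and THY1 had at most 3 counts in a library. Epithelial markers (7 of 9 found) summed to 965 to 1183 CPM in treated and 1335 to 1454 CPM in DMSO libraries, nearly all of it KRT18, and EPCAM was at 0. Of 8 leukocyte markers 6 were found, with a summed level of 5.97 to 8.86 CPM in treated and 1.97 to 2.76 CPM in DMSO libraries; the defining genes PTPRC and SPI1 were at 0 counts in all 6 libraries. Of the 3 leukocyte markers tested, 2 rose: CD68, a lysosomal membrane protein gene, averaged 6.23 CPM in treated and 1.87 CPM in DMSO cells, and CD3E, a T cell receptor subunit gene, had 39, 19 and 23 counts in treated and 0, 1 and 2 counts in DMSO libraries. Neural markers (6 of 6 found) summed to 17.8 to 24.7 CPM in treated and 15.3 to 18.6 CPM in DMSO libraries; muscle, endothelial and erythroid markers stayed under 1 CPM in every library. The part of these shifts in the results below was not tested. In bulk RNA, fewer cells of a type and less RNA per cell cannot be told apart.

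In treated cells, genes rose in the groups that start autophagy, supply its membrane, coat it with LC3 and GABARAP and bind its cargo. The 9 tested genes of the conjugation group had log2 fold changes between -0.55 and 0.36. That group, called conjugation enzymes below, holds the E2-like enzymes ATG3 and ATG10, the ATG4 proteases, ATG5, ATG12 and ATG16L1. ATG7, also assigned to it, was not found. SQSTM1 was 4.79-fold higher, GABARAP 3.64-fold and MAP1LC3B 3.24-fold, and the kinase gene ULK1 was 2.65-fold higher. Enough counts for a test were present for 35 of the 36 genes. Of these, 20 (57.1%) rose, 1 fell and 14 did neither (edgeR's quasi-likelihood test, Benjamini-Hochberg adjusted p below 0.05 over 17424 gene models), while 25.5% of all tested gene models rose and 26.8% fell. Rises of at least 1.5-fold were found for 16 of the 35, against 20.3% of all tested models, and falls of that size for 0, against 22.1%; the 1 that fell, ATG16L1, was 1.47-fold lower. Rises of at least 2-fold were found for 11, against 11.7%. With library size only, 12 of the 35 were called higher and 5 lower, against 13.3% and 40.3% of all tested models. The median log2 fold change was 0.54 over the 35 tested genes and -0.03 over all tested models. Library by library, all 3 treated values lay above all 3 DMSO values for 24 of the 35, against 28.8% of all tested models, and below them for 3, against 31.4%. MAP1LC3C and ATG2B passed the low-count filter only through the treated libraries, so their entry into the test depended on being higher there.

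**Figure D1:**
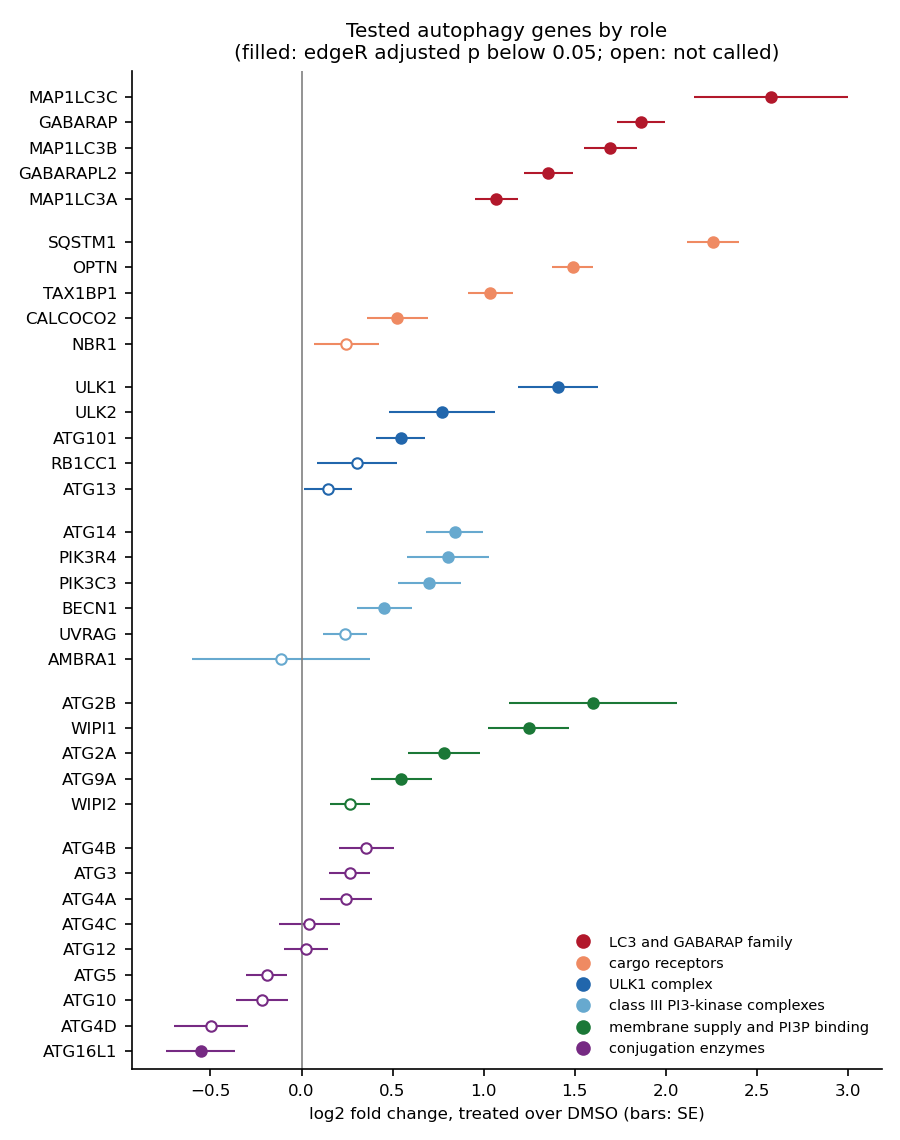
Log2 fold change (treated over DMSO, x axis) of each tested autophagy gene, grouped by role; bars are standard errors, filled points passed the test and open points did not. The 5 LC3 and GABARAP genes lie at 1.07 or above, and the 9 tested genes labelled conjugation enzymes lie between -0.55 and 0.36.

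The LC3 and GABARAP family supplies the small proteins that are fixed to the growing membrane. All 5 members found rose, each by at least 2-fold, against 11.7% of all tested models. MAP1LC3C among them entered the test only through its treated libraries. MAP1LC3B, on chromosome 1q (113703743 to 113811500, minus strand, AmexG_v6_DD assembly), had 266, 377 and 266 CPM in treated libraries and 93.3, 89.5 and 97.9 CPM in DMSO libraries. The groups did not overlap, and treated replicate 2 was the highest of the 6 (log2 fold change 1.69, SE 0.15, edgeR adjusted p = 7.00e-07). GABARAP, on chromosome 1p (130605815 to 130664031, plus strand), had 108, 116 and 99.6 CPM in treated and 24.5, 31.8 and 32.6 CPM in DMSO libraries. Its lowest treated library was far above its highest DMSO library, with a log2 fold change of 1.86 (standard error 0.13, edgeR adjusted p = 1.23e-07). With TMM scaling this was the largest in the family among genes above 10 CPM. With the length trend removed, GABARAP (1.62) and MAP1LC3B (1.63) were nearly equal.

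GABARAPL2, represented by a model named GABARAPL2.L on an unplaced sequence, had 45.0, 56.5 and 47.4 CPM in treated and 16.9, 19.8 and 21.5 CPM in DMSO libraries (log2 fold change 1.35, edgeR adjusted p = 2.55e-06). MAP1LC3A had 127, 99.3 and 110 CPM in treated libraries, against 53.4, 52.6 and 54.2 CPM in DMSO libraries. Neither gene had overlapping groups, and the MAP1LC3A log2 fold change was 1.07 (standard error 0.12, edgeR adjusted p = 6.41e-06). That was the smallest of the family with TMM scaling. With the length trend removed, MAP1LC3A (1.19) lay above GABARAPL2 (1.08). MAP1LC3C was near the limit of detection, with 41, 32 and 39 counts in treated and 7, 3 and 8 counts in DMSO libraries. That is 0.918, 1.24 and 1.01 CPM in treated cells and 0.176, 0.0897 and 0.254 CPM in DMSO cells, a log2 fold change of 2.58 (standard error 0.42, edgeR adjusted p = 0.000196). Because MAP1LC3C entered the test only through its treated libraries, that p-value carries less weight.

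**Figure D2:**
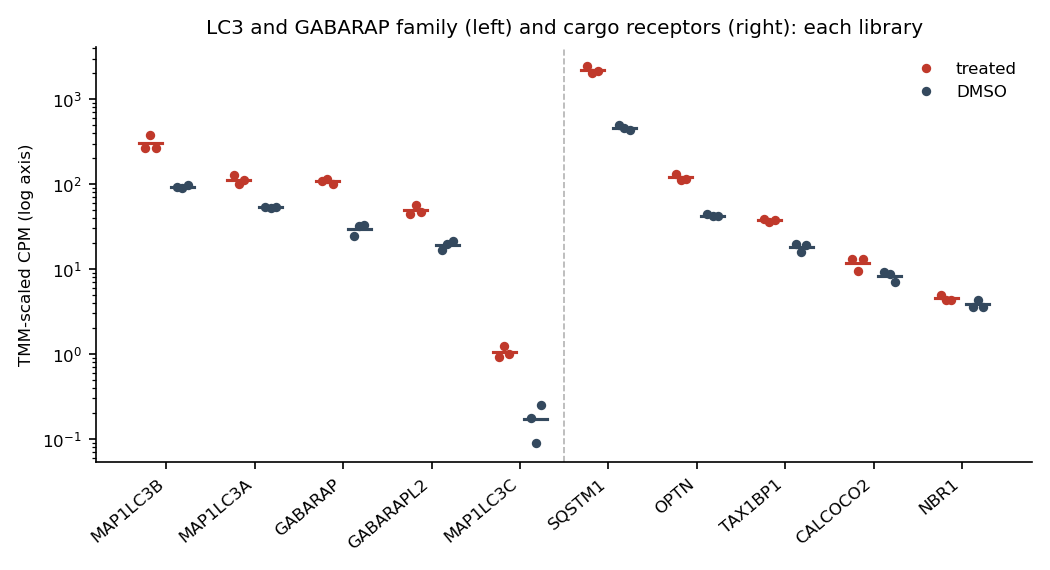
TMM-scaled CPM (log axis) of each LC3 and GABARAP gene (left of the dashed line) and each cargo receptor gene (right), with 1 point per library, treated left and DMSO right, and a line at the mean of 3 libraries. The treated points lie above the DMSO points for each of the 10 genes, as for 28.8% of all tested models. For NBR1 the gap between the groups was under 0.01 CPM, and MAP1LC3C entered the test only through its treated libraries.

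Levels of the family can be compared per length of gene model, as CPM per kb. MAP1LC3B was the most abundant in both groups, at 128 CPM per kb in treated and 39.5 CPM per kb in DMSO cells. GABARAP followed with 74.6 CPM per kb in treated and 20.5 CPM per kb in DMSO cells, then GABARAPL2 with 42.2 in treated and 16.5 in DMSO cells, MAP1LC3A with 25.8 in treated and 12.3 in DMSO cells, and MAP1LC3C with 0.886 in treated and 0.146 in DMSO cells. The order of the 5 was the same in both. As a share of the summed CPM per kb of these 5 genes, MAP1LC3A held 9.66% ± 2.10 in treated and 13.85% ± 0.842 in DMSO cells (SD, n = 3 each), with values of 11.4%, 7.34% and 10.2% in treated libraries and 14.8%, 13.6% and 13.1% in DMSO libraries, which do not overlap. GABARAP held 27.6% ± 1.75 in treated and 23.0% ± 2.30 in DMSO cells, and its groups did not overlap either. The groups were also separate for GABARAPL2, at 15.0%, 15.5% and 16.2% in treated and 17.3%, 19.0% and 19.3% in DMSO libraries. MAP1LC3C held 0.326% ± 0.0207 in treated and 0.163% ± 0.0713 in DMSO cells, also separate. That share carries little weight, because it rests on 7, 3 and 8 counts in DMSO libraries and the gene passed the filter only through its treated libraries. The share of MAP1LC3B was 46.8% ± 3.77 in treated and 44.5% ± 2.56 in DMSO cells, with overlapping groups. No test was run on these shares. With 3 libraries a group, an exact two-sided permutation test cannot go below 0.10. The MAP1LC3A model is the longest of the 5, at 4350 bases, and the part of a length trend in its share was not tested.

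**Figure D3:**
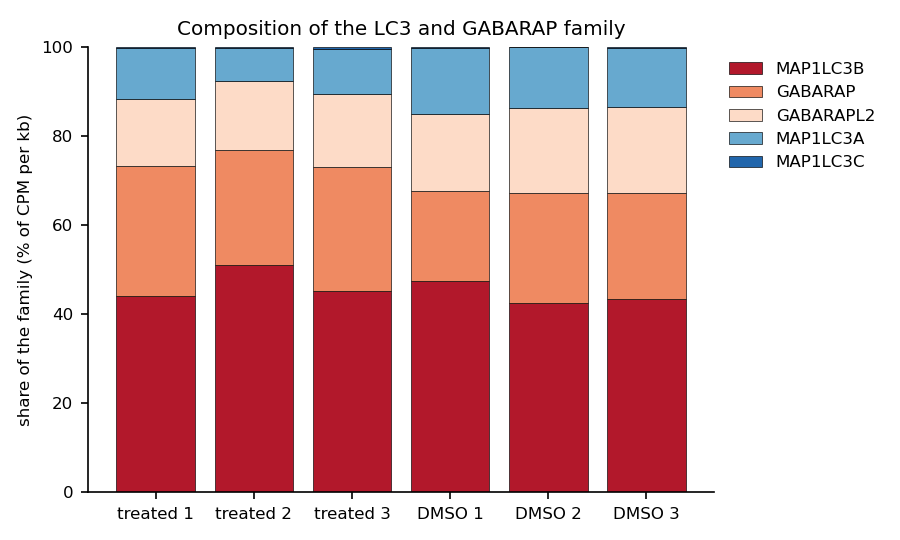
Share of each LC3 and GABARAP gene in the summed CPM per kb of the 5 genes (y axis, %), 1 stacked bar per library, treated left and DMSO right. MAP1LC3B holds 42.5% to 51.1% of the family in each library, and the MAP1LC3A share is 7.34% to 11.4% in treated and 13.1% to 14.8% in DMSO libraries.

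Cargo receptors link ubiquitin-marked cargo to LC3 and GABARAP, and 4 of the 5 rose, against 25.5% of all tested models. SQSTM1, which encodes the receptor p62 and is a known target of the antioxidant factor NRF2 in mammals, had 2458, 2015 and 2134 CPM in treated libraries and 489, 457 and 432 CPM in DMSO libraries. It had the highest level per length of all the autophagy genes, 643 CPM per kb in treated and 134 CPM per kb in DMSO cells, and the groups were well apart (log2 fold change 2.26, SE 0.14, edgeR adjusted p = 4.33e-08). The gene lies on chromosome 3q (682267601 to 682291753, minus strand).

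OPTN, the gene of optineurin, a receptor for damaged mitochondria and bacteria in mammalian cells, had 132, 111 and 116 CPM in treated and 43.9, 41.8 and 42.1 CPM in DMSO libraries. The 3 DMSO values were tightly grouped and all treated values were higher (log2 fold change 1.49, SE 0.11, edgeR adjusted p = 2.16e-07). TAX1BP1, a receptor gene linked to the clearance of protein aggregates, had 39.1, 35.5 and 37.7 CPM in treated and 19.8, 16.0 and 19.1 CPM in DMSO libraries (log2 fold change 1.04, edgeR adjusted p = 1.31e-05). The change of CALCOCO2, which encodes the receptor NDP52, was smaller, with a log2 fold change of 0.52 (standard error 0.17, edgeR adjusted p = 0.0177); with library size only it was not called (0.17, edgeR adjusted p = 0.547), nor was it without treated replicate 3 (0.45) and without DMSO replicate 3 (0.42). NBR1, a receptor gene related to SQSTM1, had a log2 fold change of 0.24 and did not pass (edgeR adjusted p = 0.269).

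The ULK1 complex receives signals from the nutrient kinases mTORC1 and AMPK, and 3 of its 5 genes rose, against 25.5% of all tested models. ULK1 had 5.57, 4.96 and 4.10 CPM in treated libraries and 1.84, 2.24 and 1.43 CPM in DMSO libraries. The groups were separate, and the log2 fold change was 1.41 (standard error 0.22, edgeR adjusted p = 0.000138). ULK2, its paralog, had 2.19, 1.94 and 2.50 CPM in treated and 1.38, 0.747 and 1.78 CPM in DMSO libraries. Here the lowest treated library lay just above the highest DMSO library (log2 fold change 0.77, SE 0.29, edgeR adjusted p = 0.0394). The call was lost when treated replicate 1 (0.79), treated replicate 3 (0.67), DMSO replicate 1 (0.81) or DMSO replicate 2 (0.49) was left out.

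ATG101, which stabilises ATG13 in the complex, had 19.6, 24.5 and 21.8 CPM in treated and 13.5, 14.8 and 16.8 CPM in DMSO libraries (log2 fold change 0.54, SE 0.14, edgeR adjusted p = 0.00455). With library size only, the calls of ATG101 (0.17, edgeR adjusted p = 0.317) and ULK2 (0.41, edgeR adjusted p = 0.294) were lost, and that of ULK1 was not. The scaffold genes RB1CC1, which encodes FIP200, and ATG13 did not pass, with log2 fold changes of 0.30 and 0.14 and edgeR adjusted p-values of 0.266 and 0.383. The groups overlapped for both. Per length, ATG13 was the most abundant of the complex, at 3.56 CPM per kb in treated and 3.23 CPM per kb in DMSO cells, and ULK2 the least, at 0.272 CPM per kb in treated and 0.160 CPM per kb in DMSO cells. The ATG101 model has 15820 bases and the ATG13 model 3945. By mean CPM, ATG101 (22.0 in treated and 15.1 in DMSO cells) was above ATG13 (14.0 and 12.7).

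Among genes of the class III phosphatidylinositol 3-kinase complexes, 4 of 6 rose, against 25.5% of all tested models. ATG14, the subunit that directs the kinase to autophagosome formation, had 15.6, 22.0 and 18.8 CPM in treated and 9.41, 10.3 and 11.7 CPM in DMSO libraries. All treated libraries were above all DMSO libraries, with a log2 fold change of 0.84 (standard error 0.16, edgeR adjusted p = 0.000502). UVRAG, the subunit that takes the place of ATG14 in a second complex acting on endosomes, had 20.2, 22.7 and 21.3 CPM in treated and 18.0, 19.2 and 17.0 CPM in DMSO libraries. The UVRAG groups did not overlap either, but the change did not pass the test (log2 fold change 0.24, SE 0.12, edgeR adjusted p = 0.114). It passed with upper-quartile scaling (0.33, edgeR adjusted p = 0.0350) and lay at -0.14 with library size only.

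PIK3C3, the catalytic subunit VPS34, had 9.20, 11.1 and 9.31 CPM in treated and 7.15, 5.98 and 4.95 CPM in DMSO libraries (log2 fold change 0.70, SE 0.17, edgeR adjusted p = 0.00379). PIK3R4, the subunit VPS15, had 9.60, 8.77 and 10.4 CPM in treated and 7.98, 4.21 and 4.19 CPM in DMSO libraries. DMSO replicate 1 stood above the other DMSO libraries for PIK3R4 (log2 fold change 0.80, SE 0.23, edgeR adjusted p = 0.00902), whose call was lost without DMSO replicate 2 (0.64, edgeR adjusted p = 0.0544). BECN1, the beclin 1 subunit that ATG14 and UVRAG bind, rose with a log2 fold change of 0.46 (standard error 0.15, edgeR adjusted p = 0.0208). The BECN1 call was lost without treated replicate 3 (0.41), DMSO replicate 2 (0.46) or DMSO replicate 3 (0.41), and with no low-count filter (0.41). With library size only, PIK3C3 (0.32), PIK3R4 (0.43) and BECN1 (0.09) were not called, and ATG14 still was (0.46, edgeR adjusted p = 0.0220). AMBRA1, a regulator of beclin 1, was low, with 16, 3 and 24 counts in treated and 15, 14 and 14 counts in DMSO libraries, and did not pass (log2 fold change -0.11, SE 0.49).

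Genes that supply membrane or read PI3P rose in 4 of 5 cases, against 25.5% of all tested models. ATG2B among the 4 entered the test only through its treated libraries, and the value of ATG9A is uncertain, as described below. WIPI1, which binds PI3P, had 3.87, 4.23 and 3.43 CPM in treated and 2.04, 1.37 and 1.40 CPM in DMSO libraries, clearly apart (log2 fold change 1.25, SE 0.22, edgeR adjusted p = 0.000408). WIPI2, which binds PI3P and recruits ATG16L1, was more abundant, at 11.7 CPM per kb in treated and 9.74 CPM per kb in DMSO cells. WIPI1 stood at 0.144 CPM per kb in treated and 0.0601 CPM per kb in DMSO cells. The WIPI1 model has 26694 bases and the WIPI2 model 4095. By mean CPM the gap was smaller, with 48.0 in treated and 39.9 in DMSO cells for WIPI2 and 3.84 and 1.60 for WIPI1. WIPI2 had 50.0, 47.3 and 46.7 CPM in treated and 40.3, 42.4 and 36.9 CPM in DMSO libraries. The WIPI2 groups did not overlap, and the change lay just outside the threshold, with a log2 fold change of 0.27 (standard error 0.11, edgeR adjusted p = 0.0563). It passed under 6 of 15 other settings, among them DESeq2 (0.30, adjusted p = 0.0386), and was -0.10 with library size only.

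ATG2A, a lipid transfer protein gene, had 5.24, 4.58 and 5.08 CPM in treated and 2.72, 3.59 and 2.38 CPM in DMSO libraries (log2 fold change 0.78, SE 0.20, edgeR adjusted p = 0.00471). Its paralog ATG2B had 32, 28 and 34 counts in treated and 7, 18 and 5 counts in DMSO libraries. DMSO replicate 2 held most of the ATG2B counts of its group, and the log2 fold change was 1.60 (standard error 0.46, edgeR adjusted p = 0.0103), a call lost without DMSO replicate 1 (1.31, edgeR adjusted p = 0.0597). Without DMSO replicate 2 it was 2.36 (edgeR adjusted p = 0.00221). ATG9A, a lipid scramblase gene of small vesicles, rose with a log2 fold change of 0.55 (standard error 0.17, edgeR adjusted p = 0.0135). That value is uncertain, because 64.0% of the exon bases of the ATG9A model are shared with models on the same stretch, the most counted of them ANKZF1 on the opposite strand, and the library procedure does not mark strand. ANKZF1 itself fell, with 13.5 CPM in treated and 19.6 CPM in DMSO cells (log2 fold change -0.54, edgeR adjusted p = 0.00696). The ATG9A call was lost without DMSO replicate 2 (0.47), and those of ATG9A (0.18) and ATG2A (0.42) were lost with library size only.

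Of the conjugation enzymes, 0 of 9 tested genes rose and 1 fell by edgeR at an adjusted p below 0.05, against 25.5% and 26.8% of all tested models, and their median log2 fold change was 0.02. At an unadjusted p below 0.05, 2 were higher and 2 lower; the share of all models at that threshold is not given here. DESeq2 called 1 higher and 1 lower, against 4532 higher and 4275 lower of all 17424 tested models. With RLE or upper-quartile scaling, 2 of the 9 rose in each case, ATG3 and ATG4B. Of all 17424 tested models, 4631 rose with RLE and 5041 with upper-quartile scaling. Over the 15 other settings ATG3 was called higher in 4 and ATG4B in 5. ATG12, the ubiquitin-like protein joined to ATG5, had 47.2, 55.9 and 53.5 CPM in treated and 45.5, 50.8 and 57.6 CPM in DMSO libraries. The ranges overlapped nearly in full (log2 fold change 0.02, SE 0.12, edgeR adjusted p = 0.880). ATG5 was measured at 20.4 to 21.2 CPM in treated and 22.9 to 24.3 CPM in DMSO libraries, separate groups whose difference did not pass the test (log2 fold change -0.19, edgeR adjusted p = 0.174). It passed with the length trend removed (-0.40, edgeR adjusted p = 0.00764) and with library size only (-0.56, edgeR adjusted p = 0.00592).

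ATG16L1, which brings the ATG12 and ATG5 conjugate to the membrane, was the 1 gene that fell, and it is given in full as a choice made after its values were seen. It had 3.31, 3.88 and 3.25 CPM in treated and 5.59, 5.50 and 4.16 CPM in DMSO libraries, with no overlap (log2 fold change -0.55, SE 0.19, edgeR adjusted p = 0.0241). The call was lost when any of treated replicate 1 (-0.52), treated replicate 3 (-0.51), DMSO replicate 1 (-0.49) or DMSO replicate 2 (-0.50) was left out, with upper-quartile scaling (-0.46) and with the length trend removed (-0.41). ATG4D, a protease gene of the LC3 cycle, lay just outside the threshold with 3.85, 2.91 and 3.79 CPM in treated and 5.36, 5.74 and 3.87 CPM in DMSO libraries. Treated replicate 1 nearly met DMSO replicate 3 (log2 fold change -0.50, SE 0.20, edgeR adjusted p = 0.0537). ATG4D was called lower in 4 of 15 other settings: library size only (-0.86), no low-count filter (-0.54), thinning (-0.53) and without DMSO replicate 3 (-0.66).

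The other proteases that prepare and release LC3, ATG4A, ATG4B and ATG4C, had log2 fold changes of 0.24, 0.36 and 0.04. The E2-like enzymes ATG3 and ATG10 had 0.26 and -0.22. None of these 5 passed, with edgeR adjusted p-values from 0.0635 to 0.846. With library size only, 5 conjugation genes were called lower (ATG4D, ATG5, ATG10, ATG12 and ATG16L1) and the group's median was -0.35, against -0.40 over all models under that scaling; relative to all models the group's median differed by 0.05 under both that scaling and TMM.

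**Figure D4:**
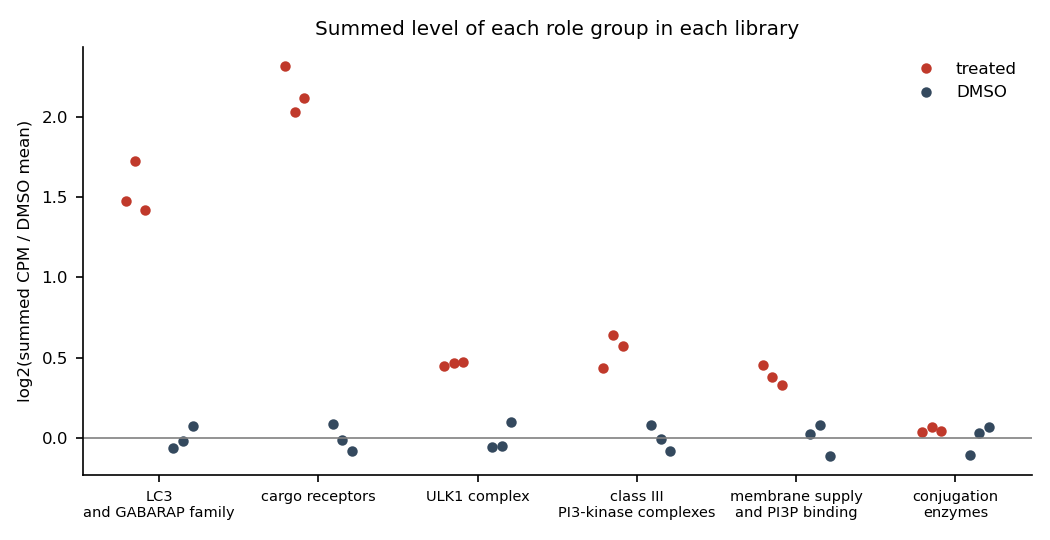
Summed CPM of each role group in each library, as log2 of the ratio to the mean of the 3 DMSO libraries (y axis); treated libraries left, DMSO libraries right. The treated points lie above the DMSO points in 5 of 6 groups and among them for the conjugation enzymes. A sum mostly follows the most counted gene of its group. In treated replicate 1, SQSTM1 had 2458 of the 2647 CPM of the cargo receptors. There WIPI2, which was not called, had 50.0 of the 68.45 CPM of the membrane group.

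Ratios of counts within a library do not depend on the scaling. The LC3 and GABARAP genes together had 3.30, 3.85 and 3.16 counts per count of the conjugation enzymes in treated libraries, and 1.25, 1.18 and 1.22 in DMSO libraries. SQSTM1 had 14.9, 11.9 and 12.8 counts per count of the conjugation enzymes in treated and 3.26, 2.78 and 2.56 in DMSO libraries. For the ULK1 complex the ratio was 0.285, 0.283 and 0.288 in treated and 0.222, 0.203 and 0.219 in DMSO libraries, and for the class III kinase genes 0.382, 0.431 and 0.416 in treated and 0.329, 0.282 and 0.261 in DMSO libraries. The groups were separate in each of these ratios, which show unequal change and not which side of the ratio moved. Within the conjugation enzymes, ATG16L1 had 0.157, 0.190 and 0.159 counts per ATG5 count in treated and 0.244, 0.233 and 0.171 in DMSO libraries, and there the groups overlapped.

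The 11 genes ULK1, ATG14, WIPI1, SQSTM1, OPTN, TAX1BP1, MAP1LC3A, MAP1LC3B, MAP1LC3C, GABARAP and GABARAPL2 kept their direction and their call under every other setting that could test them. For MAP1LC3C this carries less weight, because its entry into the test depended on its treated libraries. With a filter at a mean CPM of at least 1 it was not tested. Rises were called among both the more and the less abundant genes. Of the 17 genes with more counts (13.4 to 1331 CPM) 9 rose, and of the 18 with fewer (0.389 to 11.5 CPM) 11 rose. The median log2 fold change was 0.54 in each, and 25.5% of all tested models rose. The share of all models at each level is not given here. The 18 include MAP1LC3C and ATG2B, which entered the test only through their treated libraries. EPG5, which encodes a tether between autophagosome and lysosome, was too low to be tested, with 0 counts in each treated library and 0, 3 and 1 counts in DMSO libraries, and no fold is given.

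**Figure D5:**
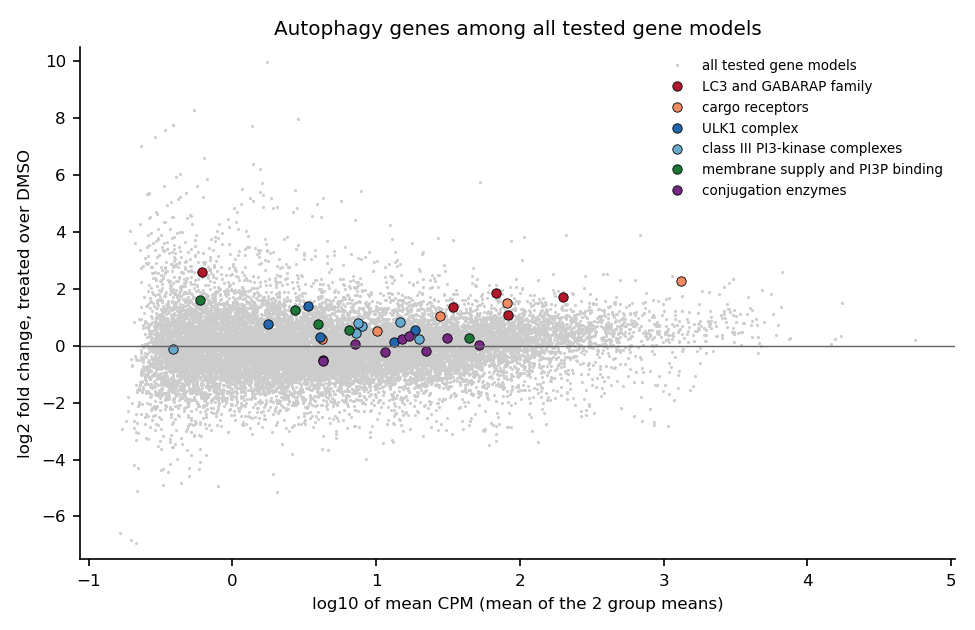
Log2 fold change (treated over DMSO, y axis) against the log10 of the mean CPM (x axis) for all 17424 tested gene models in grey and for the 35 tested autophagy genes coloured by role. SQSTM1 is the autophagy gene furthest to the right, at a log2 fold change of 2.26, and the conjugation enzymes lie between -0.55 and 0.36.

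Several symbols were carried by more than 1 gene model, 11 of the 36. A second OPTN model, on chromosome 12p (2409770 to 2432704), had 56.6, 48.1 and 52.3 CPM in treated and 17.2, 17.7 and 20.0 CPM in DMSO libraries. Its log2 fold change of 1.52 (standard error 0.12, edgeR adjusted p = 3.33e-07) was close to the 1.49 of the first. A second TAX1BP1 model rose by 0.78 on the log2 scale (edgeR adjusted p = 0.00780), and a second ATG2A model, next to the first on chromosome 2q, by 0.92 (edgeR adjusted p = 0.0222), with overlapping groups. The second PIK3C3 model did not pass (0.56, edgeR adjusted p = 0.278). Further models of ATG2B, GABARAPL2 and RB1CC1 held 10 to 74 counts over the 6 libraries and were too low to be tested, and the remaining models held fewer than 10. Models of 1 symbol may be parts of 1 gene or copies of it, and reads could be split between them. With counts summed over the models of a symbol, 20 genes rose and 1 fell, against 4439 and 4664 of all 17413 models tested that way.

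Beyond the genes above, 4 lists of further autophagy genes were counted, to be read against the 25.5% of all tested models that rose and the 26.8% that fell. Of 28 tested genes of mTORC1, AMPK and TFEB signalling, 11 rose and 2 fell, with a median log2 fold change of 0.29. RHEB, the GTPase that activates mTORC1, averaged 297 ± 59.1 CPM in treated and 123 ± 12.1 CPM in DMSO cells (SD, n = 3 each), a log2 fold change of 1.27. LAMTOR2, a subunit of the complex that anchors mTORC1 to the lysosome, averaged 325 ± 76.7 CPM in treated and 141 ± 15.2 CPM in DMSO cells (log2 fold change 1.20). STK11, the kinase LKB1 that activates AMPK, and PRKAA1, a catalytic AMPK subunit, fell with log2 fold changes of -0.60 and -0.38. Other AMPK subunit genes rose: PRKAB2 (0.86), PRKAG2 (0.66) and PRKAB1 (0.37). PRKAA2 (-0.46) and PRKAG1 (-0.42) did not pass, so the AMPK genes had no common direction. The STK11 call was lost without treated replicate 3 (-0.62) and without DMSO replicate 1 (-0.44), and the PRKAA1 call in 9 settings, RLE scaling (-0.35) and DESeq2 (-0.35) among them. TFEB, a transcription factor of lysosomal and autophagy genes, averaged 1.36 ± 0.355 CPM in treated and 1.70 ± 0.230 CPM in DMSO cells and did not pass (edgeR adjusted p = 0.345).

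Genes that fuse autophagosomes with lysosomes rose in 7 of 13 tested cases and fell in 1. VAMP8, the lysosomal SNARE, averaged 23.3 ± 2.12 CPM in treated and 6.83 ± 0.516 CPM in DMSO cells (log2 fold change 1.77, edgeR adjusted p = 2.62e-07), and RAB7A, the late endosomal GTPase, averaged 444 ± 45.0 CPM in treated and 186 ± 4.49 CPM in DMSO cells (log2 fold change 1.26). STX17, the SNARE of the autophagosome, fell by 0.35 on the log2 scale (edgeR adjusted p = 0.0487), a call that was lost under RLE (-0.32) and upper-quartile (-0.26) scaling and without any 1 library (-0.39 to -0.30). Of 19 tested receptors for mitochondria, endoplasmic reticulum and other cargo, 10 rose and 1 fell. BNIP3L, the mitochondrial receptor also called NIX, averaged 79.9 ± 11.5 CPM in treated and 18.6 ± 0.277 CPM in DMSO cells, with a log2 fold change of 2.10 (edgeR adjusted p = 3.56e-08). SEC62, known as an endoplasmic reticulum receptor, rose by 0.96 on the log2 scale, and BCL2L13, a mitochondrial receptor, fell by 0.83.

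Of 15 tested further factors, 5 rose and 2 fell. ZFYVE1, whose product marks the endoplasmic reticulum sites where autophagosomes form, and SH3GLB1, a beclin 1 partner, rose by 1.45 and 1.27 on the log2 scale. EVA1A and DRAM2 fell by 0.82 and 0.79 on the log2 scale, and the DRAM2 call was lost without DMSO replicate 1 (-0.72).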

How the data were processed

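The deposited values are raw counts, whole numbers of reads for every gene model of AmexG_v6_DD (the assembly in the table's own name), and the 6 columns were matched to samples through the description labels. bcl2fastq 2.20.0, STAR 2.7.7a and featureCounts 2.0.1 are named, without roles, in the submitters' processing notes; the treatment of multi-mapping or ambiguous reads is not given in the sources used here. Per the labels' protocols, oligo-dT primed cDNA from 1000 ng of RNA was amplified by a modified Smart-seq2 procedure, which marks neither strand nor molecules, and sequenced in paired reads of 100 bases, so counting limits cover counting error only. A floor of 3 counts equals 0.0643 to 0.105 CPM before TMM scaling. The 92 spike-in rows held 0 counts and were left out. No 2 libraries agreed within sampling noise (chi-square per degree of freedom 5.63 to 68.8 within groups).

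The test was that of edgeR 4.0.16 (R 4.3.3): filterByExpr left 17424 of 99126 models, libraries were scaled by TMM, and treated was compared with DMSO by the two-sided quasi-likelihood F-test with robust dispersions, 4 residual degrees of freedom and Benjamini-Hochberg adjustment over all models tested. SEs derive from the F statistic. The fit was tested on simulated data. CPM per kb divides mean CPM by the deposited length of the model. Replicate numbers are in record order and pair nothing. Members, lists and tests were chosen with earlier results of these data known. Values in every library are printed for genes called at 1.5-fold or more and the highest gene of each role group. They are also printed for the 2 genes nearest outside the threshold and for untested genes. Of each other list, at most 2 of the largest rises and falls are named, plus genes named as background. The remaining AMPK subunits are named too, a choice made after their values were seen. The alternatives were RLE, upper-quartile and library-size scaling, DESeq2 1.42.0, 2 other low-count filters, thinning, removal of the length trend, summing models of a symbol, and leaving out each library. Promoter and protein sequences were not used here.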

Additional observations from a re-analysis of the deposited data

How the results depend on the processing

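Of the 35 tested autophagy genes, 11 kept direction and call in all 15 other settings (14 for MAP1LC3C), and 10 changed direction in at least 1. Library size only gave the largest move: 2314 models higher and 7029 lower in all, 12 autophagy genes higher and 5 lower, and a member median of 0.17. For mTORC1, AMPK and TFEB signalling the counts were 6 higher and 6 lower, and for fusion 3 higher and 2 lower. With library size only, other receptors had 7 higher and 4 lower, and further factors 3 higher and 5 lower. Under it RB1CC1 (-0.056), ATG13 (-0.22), UVRAG (-0.14), WIPI2 (-0.10), ATG3 (-0.11), ATG4A (-0.12), ATG4C (-0.33), ATG12 (-0.35) and NBR1 (-0.12) turned negative. ATG4C was -0.0015 and ATG12 -0.020 with no low-count filter. The member median was 0.58 with RLE scaling or DESeq2, 0.63 with upper-quartile scaling, 0.49 with no low-count filter and 0.70 with the length trend removed. Members called lower numbered 0 with upper-quartile scaling (4056 of all 17424 models). They numbered 2 with no low-count filter (5021 of 36041 models) or thinning (4576 of 16988 models). Signalling genes called lower numbered 1 with RLE, upper-quartile scaling or DESeq2 and 5 with no filter, and fusion genes called lower numbered 0 in those 4 settings and after thinning.

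Leaving out 1 library gave 16 to 22 members higher, 0 to 2 lower, and a median of 0.48 to 0.58. Of the 17895 to 18051 models then tested, 3706 to 4503 were called higher and 3884 to 4731 lower. Signalling genes called lower numbered 0 to 2, fusion genes 0 to 0, further factors 1 to 2 lower and 3 to 5 higher. ATG4C ran from -0.037 to 0.18, ATG12 from -0.062 to 0.11 and AMBRA1 from -0.68 to 0.24. Causes of these changes, beyond fewer samples or models, were not tested. No paired analysis was possible because the labels give no replicate numbers shared between the groups.

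Genes below about 0.3 CPM, such as EPG5, cannot be judged at this depth. The EPG5 model is an unbroken stretch of 7075 bases on an unplaced sequence, and whether it covers the whole gene was not tested.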
